A study of Rattus norvegicus with 4 samples.

Results

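*Osgin1* and 8 genes of the NRF2 pathway (*Nfe2l2*, *Keap1*, *Nqo1*, *Gclc*, *Gclm*, *Txnrd1*, *Srxn1* and *Pir*) were followed in rat liver during inhalational anesthesia. They are 9 of the 16999 named genes analysed. The set was chosen by the level of *Osgin1*, which was far lower after 6 h than at 0 h with both sevoflurane and desflurane, so that difference is given as a description. Each of the 4 groups held 1 library from 1 wild-type rat: sevoflurane 0 h and desflurane 0 h, from rats decapitated once the agent had made them unconscious, and sevoflurane 6 h and desflurane 6 h, from rats kept under the agent for 6 h. Sevoflurane was inhaled at 4.5% and desflurane at 6%. All 4 rats had therefore inhaled an anesthetic, and there was no untreated animal. The labels give no strain, sex or age for these rats. With 1 animal in each group no value has a replicate error, so the differences below are between single livers and carry no test. A test of time over both agents, with 2 livers at each time, was not made, because that contrast chose the set. The livers of the 0 h and 6 h rats were also collected 6 h apart, and the duration of anesthesia and the hour of collection cannot be told apart.

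NRF2, the transcription factor encoded by *Nfe2l2*, controls genes for glutathione synthesis, thiol reduction and quinone detoxification, and the liver is one of the organs where this response is best known. Its protein is normally captured by KEAP1, which brings it to a CUL3 ubiquitin ligase for degradation. Oxidants and electrophiles modify KEAP1, NRF2 then accumulates, pairs with a small MAF protein and binds antioxidant response elements in its target genes, while the repressor BACH1 occupies the same elements. Because much of this control acts on the protein, the mRNA of *Nfe2l2* is not a measure of NRF2 activity. *Osgin1* encodes oxidative stress-induced growth inhibitor 1 and has been described as an NRF2-responsive gene in other cells.

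The promoter windows of 5 of the genes are shown because they differ in the elements through which NRF2 and BACH1 act. Each window runs from 250 bases before to 50 bases after an annotated start of the gene, as given by RefSeq for the assembly GRCr8. The RefSeq records of *Osgin1*, *Nfe2l2* and *Txnrd1* begin upstream of these windows, that of *Osgin1* 13.6 kb before the start used here. The expression tables use another assembly (rn6), so these positions cannot be set beside the coordinates given below. Windows were found for all 9 genes, with 2 for *Txnrd1*. Capitals mark matches, on either strand, to TGACNNNGC, the core of the antioxidant response element, or to TGACTCA, an AP-1 type element that overlaps the former where NNN is TCA.

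*Osgin1* (GRCr8, chr19:64393651-64393950, plus strand): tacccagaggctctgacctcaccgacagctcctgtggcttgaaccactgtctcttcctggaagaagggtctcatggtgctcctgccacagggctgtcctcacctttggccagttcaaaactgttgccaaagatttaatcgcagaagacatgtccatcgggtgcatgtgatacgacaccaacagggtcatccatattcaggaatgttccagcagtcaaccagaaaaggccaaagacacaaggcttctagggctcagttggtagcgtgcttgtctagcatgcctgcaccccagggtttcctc
*Nfe2l2* (GRCr8, chr3:81028950-81029249, minus strand): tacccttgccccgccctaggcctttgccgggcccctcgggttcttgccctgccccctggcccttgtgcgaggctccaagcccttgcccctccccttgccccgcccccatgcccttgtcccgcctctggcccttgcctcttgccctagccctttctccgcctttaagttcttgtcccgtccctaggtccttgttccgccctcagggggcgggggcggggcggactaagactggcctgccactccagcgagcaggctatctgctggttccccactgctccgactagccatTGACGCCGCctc
*Gclm* (GRCr8, chr2:213031885-213032184, plus strand): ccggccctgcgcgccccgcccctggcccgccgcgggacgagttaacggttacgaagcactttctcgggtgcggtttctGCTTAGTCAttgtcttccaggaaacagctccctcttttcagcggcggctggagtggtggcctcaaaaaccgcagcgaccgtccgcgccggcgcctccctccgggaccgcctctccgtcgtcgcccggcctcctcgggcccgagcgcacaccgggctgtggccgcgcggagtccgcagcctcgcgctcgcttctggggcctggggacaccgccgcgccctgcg
*Srxn1* (GRCr8, chr3:161064562-161064861, plus strand): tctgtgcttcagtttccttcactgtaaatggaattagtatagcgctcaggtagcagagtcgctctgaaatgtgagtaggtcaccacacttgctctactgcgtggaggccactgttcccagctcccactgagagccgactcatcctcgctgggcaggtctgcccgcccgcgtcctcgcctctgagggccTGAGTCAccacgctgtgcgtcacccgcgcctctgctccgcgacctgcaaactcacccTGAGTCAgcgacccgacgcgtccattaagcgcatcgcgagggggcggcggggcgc
*Pir* (GRCr8, chrX:33851000-33851299, minus strand): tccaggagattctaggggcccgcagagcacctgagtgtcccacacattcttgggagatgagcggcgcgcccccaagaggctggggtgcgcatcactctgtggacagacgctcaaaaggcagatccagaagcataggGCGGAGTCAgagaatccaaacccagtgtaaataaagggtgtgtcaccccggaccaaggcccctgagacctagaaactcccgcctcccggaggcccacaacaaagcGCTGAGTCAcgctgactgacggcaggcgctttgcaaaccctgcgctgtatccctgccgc

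The *Osgin1* window holds neither element. The *Gclm* window holds 1 antioxidant core, which begins 172 bases before the start. The *Pir* window holds 2 cores, which begin 114 and 9 bases before the start, and the one nearer the start also contains TGACTCA. *Srxn1* has TGACTCA at 2 places, beginning 62 and 5 bases before the start. The only core of *Nfe2l2* lies after its start. One of the 2 windows of *Txnrd1* also holds a core, and the windows of *Keap1*, *Nqo1* and *Gclc* hold neither element. Cores were thus found for 4 of the 9 genes and in 12.1% of all 33469 windows in the table, and TGACTCA for 2 of the 9 genes and in 4.63% of windows. The E-box CACGTG, bound by activators of the circadian clock, was in none of the 10 windows of the 9 genes and in 6.42% of all windows. A match is only a run of letters, and its absence says only that these letters are not in the window.

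Abundance is given below as TPM, a relative abundance of transcripts. Reads are divided by the length of the gene and then by a total of such values for the library. In these data that total was made up by loci assembled from the reads alone. The named genes, measured on the same reads, add 76.6% to 78.9% to it. A difference between a pair of libraries was called when the larger TPM exceeded 2 and also exceeded 2 times the smaller. Between 3.50 and 5.57 Gb of aligned sequence per library could be derived from coverage and FPKM, lowest in sevoflurane 0 h, and a TPM of 2 stood for a mean coverage of 4.72 to 7.28 reads per base. Read counts are not in the tables, so counting error is unknown. Hepatocyte markers were abundant in each library, with a summed TPM of 6 markers between 93036 and 104950. The 4 T and NK cell markers summed to between 2.56 and 7.48. Of these *Cd3e* was below 0.1 throughout, while the others were detected.

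*Osgin1* lies on chromosome 19 from 52070227 to 52085491 on the plus strand (rn6). It stood at a TPM of 91.4 in sevoflurane 0 h, 10.5 in sevoflurane 6 h, 67.0 in desflurane 0 h and 7.73 in desflurane 6 h. The ratio was nearly the same with both agents, 8.66-fold lower with sevoflurane and 8.67-fold lower with desflurane. In both pairs the TPM at 6 h was 88.5% below that at 0 h, and both 6 h livers were far below both 0 h livers. The 0 h livers themselves differed by 1.36-fold, as did the 6 h livers, with desflurane the lower each time. By level the gene ranked 747 and 975 among all genes in the 0 h libraries and 3890 and 4599 in the 6 h libraries. Ordered by fold, it ranked 16 among the 307 genes called lower with sevoflurane and 12 among the 465 called lower with desflurane. Mean coverage of the gene was 215 and 231 reads per base at 0 h and 36.1 and 28.1 at 6 h, well above that of a gene at the minimum.

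**Figure D1:**
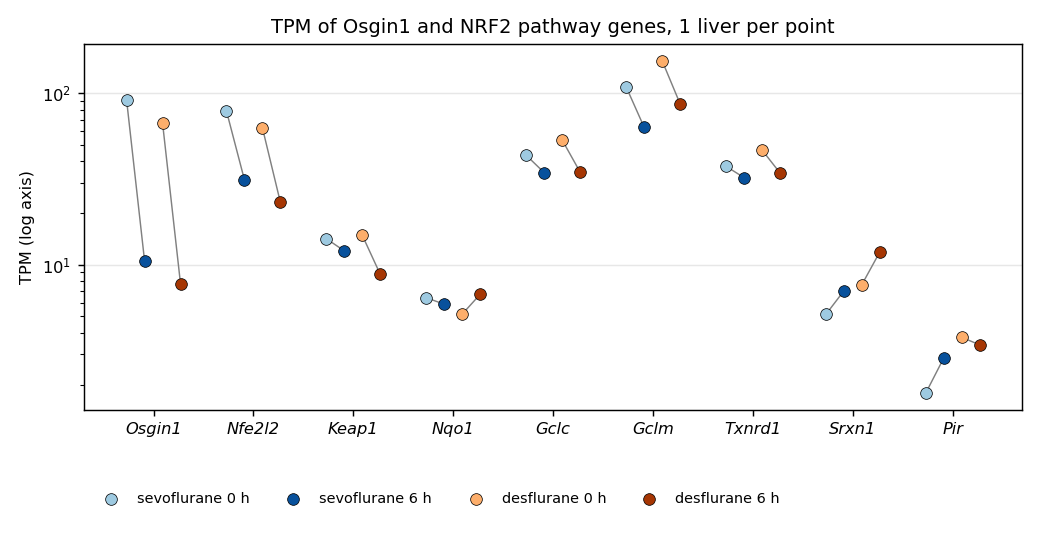
TPM (log axis) of the 9 genes in the 4 libraries, with 1 point per liver and lines joining 0 h to 6 h of the same agent. *Osgin1* stood at 91.4 and 67.0 at 0 h and at 10.5 and 7.73 at 6 h, *Nfe2l2* is the only other gene whose 2 lines both span more than 2-fold.

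*Nfe2l2* was the only other of the 9 genes called with either agent. The gene, on chromosome 3 from 62497571 to 62524994, stood at a TPM of 78.6 and 31.2 in sevoflurane 0 h and 6 h and at 62.6 and 23.0 in desflurane 0 h and 6 h. It was 2.52-fold lower at 6 h with sevoflurane and 2.72-fold lower with desflurane. As for *Osgin1*, both 6 h livers were below both 0 h livers, and desflurane was the lower agent at each time. Thus 2 of the 9 genes, *Osgin1* and *Nfe2l2*, were called lower with each agent and 0 were called higher. Over all genes above the minimum, 3.71% were called lower and 5.04% higher with sevoflurane, and 5.55% were called lower and 4.1% higher with desflurane. Genes called in the same direction with both agents made up 1.5% for lower and 2.54% for higher. Since *Osgin1* was picked from these comparisons, its share of the count supports nothing. All 9 genes were chosen with earlier results of these data known, so the count of 2 cannot be weighed against these shares.

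*Keap1*, which encodes the adaptor that marks NRF2 for degradation, lies on chromosome 8 from 22250518 to 22259779. Its TPM was 14.2 and 12.0 in sevoflurane 0 h and 6 h and 14.8 and 8.76 in desflurane 0 h and 6 h. The 2 controls were nearly equal, and the desflurane 6 h liver had the lowest value, 1.69-fold below its control. The difference with sevoflurane was 1.18-fold.

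The enzymes of glutathione synthesis were next examined. *Gclm* encodes the modifier subunit of glutamate-cysteine ligase, the enzyme of the first and limiting step, and lies on chromosome 2 from 225827504 to 225847876. It stood at a TPM of 109 and 63.3 in sevoflurane 0 h and 6 h and at 155 and 86.7 in desflurane 0 h and 6 h. Both 6 h livers were below both 0 h livers, by 1.72-fold and 1.78-fold within agents, and neither difference reached 2-fold. With the desflurane control in place of its own, the ratio with sevoflurane was past the rule (-1.29 on the log2 scale). *Gclc*, the catalytic subunit, on chromosome 8 from 85059051 to 85097470, stood at 43.4 and 34.4 with sevoflurane and at 53.3 and 34.6 with desflurane. The 6 h values of *Gclc* were almost identical, and they were 1.26-fold and 1.54-fold below the controls. *Gclm* was the more abundant subunit in each library, and the ratio of its TPM to that of *Gclc* was 2.51 and 1.84 in sevoflurane 0 h and 6 h and 2.90 and 2.50 in desflurane 0 h and 6 h.

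In the thioredoxin branch the ratios of the 2 genes lay on opposite sides of 1, and neither gene was called. *Txnrd1*, encoding the cytosolic thioredoxin reductase, lies on chromosome 7 from 26946124 to 27023889. Its TPM was 37.4 and 32.2 in sevoflurane 0 h and 6 h and 46.6 and 34.3 in desflurane 0 h and 6 h, 1.16-fold and 1.36-fold lower at 6 h. *Srxn1*, encoding sulfiredoxin, which restores over-oxidized peroxiredoxins, lies on chromosome 3 from 147608850 to 147614410. Its TPM was 5.13 and 7.04 in sevoflurane 0 h and 6 h and 7.65 and 11.9 in desflurane 0 h and 6 h, and it was the only gene of the 9 with a larger value at 6 h with both agents. Neither difference, 1.37-fold and 1.55-fold higher, was past the rule, and the controls differed by 1.49-fold. Measured against the other control, *Srxn1* was slightly lower with sevoflurane and past the rule with desflurane (1.21 on the log2 scale).

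*Nqo1* and *Pir* were called with neither agent, and for both the sign of the difference was opposite with the 2 agents. *Nqo1*, the quinone reductase often used to report NRF2 activity, lies on chromosome 19 from 38422210 to 38437103. It stood at a TPM of 6.41 and 5.88 in sevoflurane 0 h and 6 h and at 5.15 and 6.72 in desflurane 0 h and 6 h, so all 4 livers lay within a narrow range. *Pir*, encoding the iron-binding nuclear protein pirin, lies on chromosome X from 31852322 to 31968152. Its TPM was 1.79 and 2.86 in the sevoflurane pair and 3.77 and 3.41 in the desflurane pair, lowest in the sevoflurane control. *Pir* was the one gene of the 9 called between the controls, 2.11-fold higher in the desflurane control, where 1.96% of all genes above the minimum were called higher and 0.799% lower. Coverage of *Pir* was between 4.22 and 13.0 reads per base, the thinnest of the 9 genes, the sevoflurane control was the shallowest library, and the call was lost when libraries were scaled by the median of ratios, which moved log2 ratios between the controls by -0.13. Between the anesthetized animals 0 of the 9 genes were called, against 2.21% of all genes called higher and 1.77% lower in desflurane 6 h.

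As a group, the 9 genes had a median log2 ratio of -0.24 with sevoflurane and -0.62 with desflurane, and 7 of them were below their control with each agent. Without *Osgin1* the medians were -0.23 and -0.53. Over all genes above the minimum the medians were 0.06 and -0.12, and 44.2% and 62.2% of genes had a ratio below 1. Scaling each library by the median of ratios moved all log2 ratios by -0.06 with sevoflurane and by 0.11 with desflurane and changed the direction of 0 of the 18 ratios of the 9 genes. The 6 h and 0 h livers also differed in markers of other cells. The 3 red blood cell markers found in the tables had a summed TPM of 453 and 728 at 0 h and 1213 and 1342 at 6 h, and 3 of them were called higher with sevoflurane and 0 with desflurane. The desflurane ratios were also upward and close to the rule, 1.99-fold for *Hba1*, 1.86-fold for *Alas2* and 1.78-fold for *Hbb*. The controls differed by 1.46-fold to 1.94-fold in these markers, with the sevoflurane control the lower, so the 2 counts show no difference between agents. The 4 T and NK cell markers had a summed TPM of 7.48 and 4.94 at 0 h and 2.74 and 2.56 at 6 h, with 2 of them lower by the rule in the sevoflurane pair and 1 in the desflurane pair. The 6 Kupffer cell markers summed to between 214.8 and 286, with 0 called, and the endothelial, stellate and cholangiocyte lists likewise had 0 called. The sum of the 6 pericentral hepatocyte markers was 1.83-fold and 2.09-fold higher at 6 h, and that of the 6 periportal markers was 2.83-fold and 2.99-fold higher. In the pericentral list *Oat* was called higher with both agents and *Cyp2e1* and *Slc1a2* with desflurane, while *Glul* was not called and *Lgr5* was below 0.1 throughout. In the periportal list *Sds* was called higher with both agents and *Ass1* with desflurane, whereas *Cdh1* was called lower with sevoflurane and *Cyp2f4* with desflurane. The rise of the periportal sums came mostly from *Sds* and *Ass1*. *Sds* stood at 8.66 and 1135.5 in sevoflurane 0 h and 6 h and at 19.8 and 714 in desflurane 0 h and 6 h. *Hal* and *Gls2* were called with neither agent. The part of these differences in the values of *Osgin1* and *Nfe2l2* was not tested, and in a piece of tissue fewer cells of a type and less RNA per cell cannot be told apart.

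**Figure D2:**
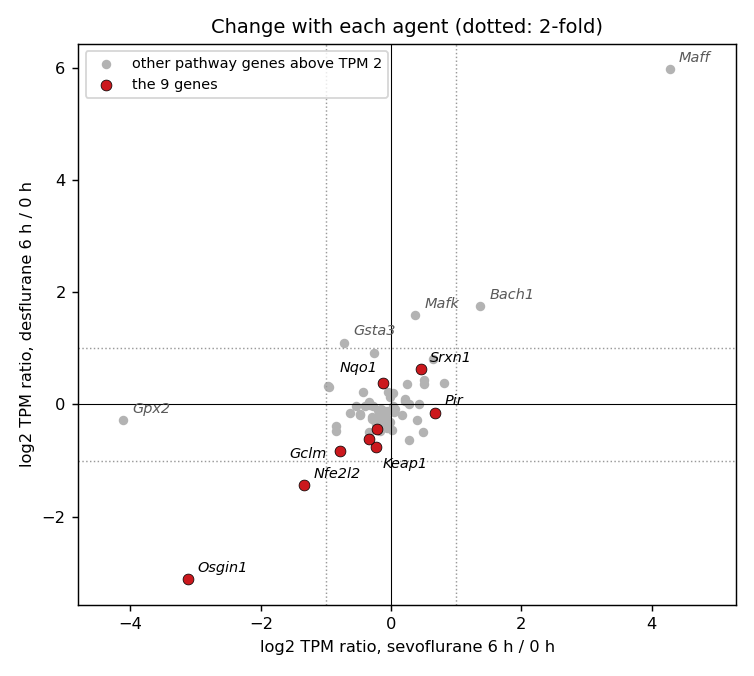
Log2 ratio of TPM at 6 h over 0 h with sevoflurane (x axis) and with desflurane (y axis) for the 9 genes (red) and the other pathway genes above a TPM of 2 (grey), with dotted lines at 2-fold. *Osgin1* and *Nfe2l2* lie beyond both lines at the lower left, *Bach1* and *Maff*, the latter with a TPM of only 2.25 in sevoflurane 6 h, beyond both at the upper right, and most enzymes lie near 0, *Gpx2* and *Gsta3* being the exceptions past a line.

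The wider pathway was then examined in 8 lists of known NRF2 regulators, targets and other antioxidant enzymes. Of 69 genes outside the 9, 68 were in the tables and 59 were above the minimum in each agent's comparison. In the sevoflurane pair 2 of the 59 passed the rule upward and 1 downward. In the desflurane pair 4 of the 59 passed it upward and 0 downward, to be read beside the shares of all genes given above. The median log2 ratio was -0.12 with sevoflurane and -0.09 with desflurane. Set against each other, the anesthetized livers differed by the rule in 5 of the 58 genes above the minimum in that pair. These were *Maff*, *Mafk*, *Akr7a3*, *Aldh1a1* and *Gsta3*, with desflurane the higher in each. Over all genes 2.21% were called higher and 1.77% lower in that pair. Between the controls *Gsta3* was also called, and *Aldh1a1* was 1.79-fold higher with desflurane, while *Maff*, *Mafk* and *Akr7a3* differed less.

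The regulators held most of these calls. *Bach1*, encoding the repressor that shares the NRF2 elements, rose 2.58-fold in the sevoflurane pair (TPM 7.54 and 19.4) and 3.36-fold in the desflurane pair (10.5 and 35.4). *Maff*, encoding a small MAF protein that pairs with either factor, stood at 0.12 and 2.25 in sevoflurane 0 h and 6 h and at 0.15 and 9.63 in desflurane 0 h and 6 h. Its 0 h values are too low for a useful ratio, and its call with sevoflurane, just above the minimum, was lost at a minimum of 5. *Mafk*, another small MAF, stood at 6.11 and 7.91 in the sevoflurane pair and rose 3.01-fold in the desflurane pair, where it stood at 5.29 and 15.9, and *Mafg* was between 5.44 and 7.55. The summed TPM of the 3 small MAF genes was 12.0 at 0 h with either agent, 17.7 in sevoflurane 6 h and 31.0 in desflurane 6 h. The ratio of *Bach1* to *Nfe2l2* TPM was 0.096 and 0.17 in the sevoflurane and desflurane controls and 0.62 and 1.54 after 6 h. The repressor's mRNA was therefore the more abundant of the pair only in desflurane 6 h. *Nfe2l1*, a relative of *Nfe2l2*, had values of 15.6 and 22.2 with sevoflurane and 15.3 and 20.6 with desflurane, past the rule with neither agent. *Cul3*, *Rbx1* and *Sqstm1*, which encode parts of the ligase and a KEAP1-binding receptor of autophagy, were called with neither agent.

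**Figure D3:**
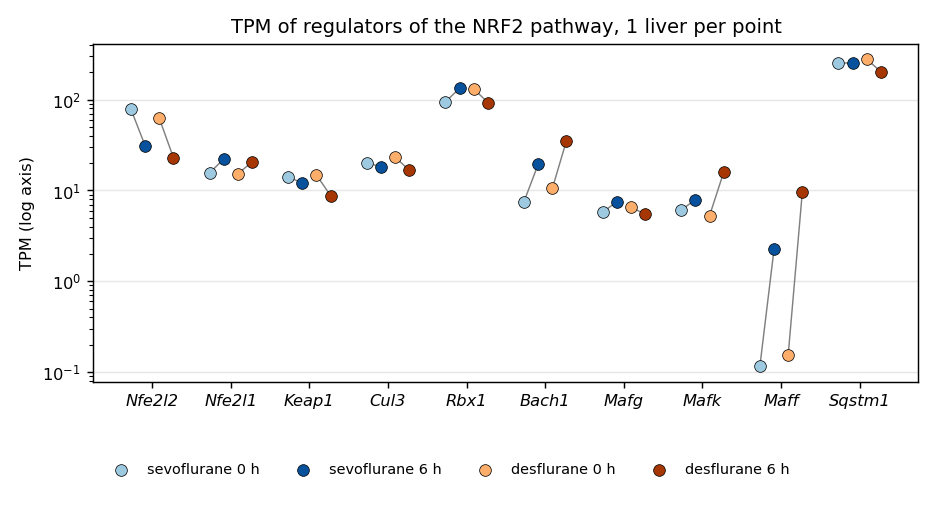
TPM (log axis) of 10 regulators of the pathway, with 1 point per liver and lines joining 0 h to 6 h of the same agent. *Nfe2l2* is lower and *Bach1* and *Maff* are higher at 6 h with both agents (*Maff* with sevoflurane only just above the minimum TPM of 2), whereas *Mafk* is called higher with desflurane alone by the rule of size.

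The enzymes were then taken list by list. Over all genes, 3.71% were called lower and 5.04% higher with sevoflurane, and 5.55% and 4.1% with desflurane. Of 13 quinone and carbonyl enzymes, of which 10 were above the minimum, 0 were called with either agent, which is near those shares for so short a list. With sevoflurane 9 of the 10 had a ratio below 1 (90%, against 44.2% of all genes), and with desflurane 5 of the 10 (50%, against 62.2%). The glutathione list had *Gpx2*, a glutathione peroxidase, at 2.04 and 0.12 in the sevoflurane pair and 2.11 and 1.73 in the desflurane pair, called lower with sevoflurane just above the minimum and not called at a minimum of 5. It also had *Gsta3*, a glutathione transferase, at 1.23 and 0.75 in the former and 2.87 and 6.16 in the latter, called higher with desflurane, a call that was lost when 1 was added to each TPM. *Gsta3* was also called higher in the desflurane control than in the sevoflurane control, and it belongs to a family of similar genes among which reads may have been divided. The other lists, of thioredoxin, NADPH supply, heme and iron, export pumps and antioxidant enzymes outside the usual NRF2 targets, had 0 genes called with either agent. They are short as well, and their counts are to be read beside the same shares of all genes. Heme oxygenase, *Hmox1*, stood at 14.1 and 9.76 with sevoflurane and at 13.8 and 13.6 with desflurane. The peroxidase *Gpx1*, in the list outside the usual targets, had values of 1162 and 668 with sevoflurane and 1477 and 828 with desflurane, ratios of 1.74 and 1.78 that did not pass the rule.

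The tables also list loci assembled from the same reads, which carry no gene name. A locus on the strand of the gene was present for the 9 genes in each library (36 of 36), and its TPM was within 10% of the named row in 26 of them. In 16 of the 36 the locus had the same ends as the named row. Closeness of the 2 values there is partly given in advance and is no separate evidence. For some, such as *Srxn1* in each library, the locus had exactly the TPM of the named row and is the same measurement again. For *Osgin1* this locus had a TPM of 109 and 12.4 in sevoflurane 0 h and 6 h and of 79.6 and 9.26 in desflurane 0 h and 6 h, which is 8.79-fold and 8.60-fold lower at 6 h. For *Nfe2l2* the values were 68.5 and 31.5 with sevoflurane and 62.5 and 23.3 with desflurane, 2.18-fold and 2.69-fold lower. By its locus *Gclm* was past the rule with sevoflurane (2.18-fold lower) but not with desflurane (1.36-fold). Its locus spanned 23584 and 20373 bases in sevoflurane 0 h and 6 h and 20373 and 23242 in desflurane 0 h and 6 h. The longer locus exceeded the named row each time (TPM 138 against 109 in sevoflurane 0 h, 113.5 against 86.7 in desflurane 6 h). These 2 ratios thus compare unlike loci and show no difference between agents. The named rows gave 1.72-fold and 1.78-fold.

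At *Osgin1* the assembled loci did not follow the annotated gene at its 5′ end. The plus-strand locus spanned the whole gene in desflurane 0 h, but began 3.36 kb and 3.38 kb inside it in sevoflurane 0 h and 6 h and 6.94 kb inside it in desflurane 6 h. The promoter window printed above stands 13.6 kb inside the RefSeq record, and its start may not be the one used in these livers. It cannot be placed against these loci, since the assemblies differ. A second locus, on the minus strand, was assembled in each of the 4 libraries from position 52052940-52052964 to 52072438-52072498, where the ranges are over libraries. It overlapped the first 2212 to 2272 bases of *Osgin1* and extended away from it toward *Mlycd*. Its TPM was 14.0 and 1.36 in sevoflurane 0 h and 6 h and 22.0 and 5.45 in desflurane 0 h and 6 h. It was 10.3-fold lower at 6 h with sevoflurane and 4.04-fold lower with desflurane. Both 6 h livers were below both 0 h livers for this locus, as for *Osgin1*, but here desflurane had the higher value at each time. Its TPM was 15.4% and 12.9% of that of *Osgin1* in sevoflurane 0 h and 6 h and 32.9% and 70.5% in desflurane 0 h and 6 h. Whether strand was used in quantification is not given in the sources used here, so reads of the 2 transcripts may not be fully separated where they overlap. In 3 of the 4 libraries the plus-strand locus lay outside this overlap. The named neighbors of *Osgin1* were called with neither agent. *Mlycd*, 21.5 kb upstream, which encodes malonyl-CoA decarboxylase, had values of 36.6 and 49.4 with sevoflurane and 38.3 and 56.3 with desflurane, and *Necab2*, 0.83 kb downstream, was below 0.4 in each library.

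**Figure D4:**
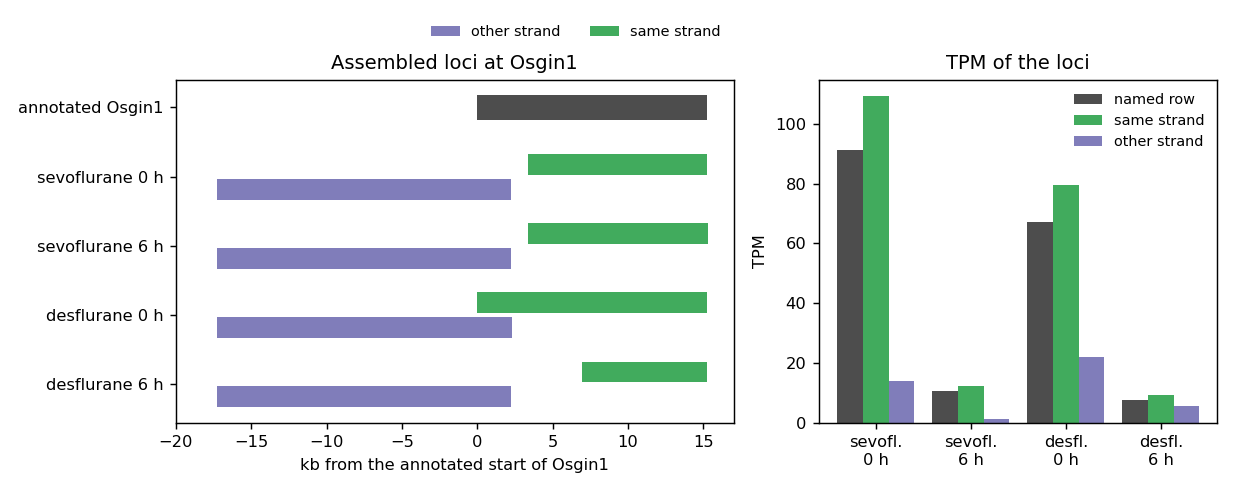
Left, extent of assembled loci at *Osgin1* in kb from its annotated start, with the annotated gene in dark grey, loci of the same strand in green and of the other strand in purple. Right, TPM of the named row and of both loci in the 4 libraries, where the other-strand locus stands at 14.0 and 22.0 at 0 h and at 1.36 and 5.45 at 6 h.

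Finally, genes with a pattern like that of *Osgin1* were sought among the 9201 genes whose TPM averaged 1 or more. Likeness was the largest difference over the 4 libraries between log2(TPM + 1) values centered on each gene's mean, so it compares shapes over only 4 points. Among the 10 nearest were *Dipk2a* (0.14), *Gimd1* (0.30), *Tubb2a* (0.50), *Id4* (0.59), *Angptl8* (0.62), *Slc34a2* (0.67), *S1pr1* (0.68) and *Socs2* (0.71). *Dipk2a* stood at a TPM of 38.0 and 3.58 with sevoflurane and 27.1 and 3.07 with desflurane. *Angptl8*, encoding a secreted regulator of lipoprotein lipase, stood at 67.3 and 10.8 in the sevoflurane pair and at 35.3 and 8.80 in the desflurane pair. That all 10 were called lower with each agent follows from the search, since *Osgin1* was itself far lower at 6 h. Under 3 other settings of the search 9 or 10 of them were found again. *Nfe2l2*, with much smaller differences, was not among them, which follows from the search as well.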

How the data were processed

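RNA sequencing of 4 rat livers was analysed, 1 library per group, with groups taken from the sample titles. Per the labels, RNA was purified with an RNeasy kit and stranded total RNA libraries were made. The submitters' processing notes name HISAT2, SAMtools, StringTie and the rn6 build. Their versions are not stated there. For each library the authors deposited a table with coverage (a signal, the mean depth per base), FPKM and TPM. The deposited TPM column was handled as a score, since the column exceeds the usual TPM total: the named genes, measured on the same reads as the assembled loci, add 76.6% to 78.9% to it.

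Rows of a symbol were summed and rows spanning 200 bases or less left out (Python 3.11.15, pandas 2.3.3). With 1 library per group no p-value was computed. Pathway genes were named when called with both agents or among the 5 largest ratios per agent and direction, and the 10 genes nearest to *Osgin1* in pattern were added, of which 2 are not reported here. Uncalled genes outside the 9, such as *Hmox1* and *Gpx1*, and the neighbors of *Osgin1* were picked with their values in view. *Osgin2* was not analysed here. The 9 genes and the lists were chosen with earlier results of these data known. Alternatives used another threshold, scaling, unit, control, pseudocount or row choice.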

Additional observations from a re-analysis of the deposited data

Results flagged for a closer look

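For 2 of the 9 genes the log2 ratio of 6 h to 0 h had opposite signs with the 2 agents, each from a single pair of animals. The log2 ratio of *Nqo1* was -0.123 in the sevoflurane pair and 0.385 in the desflurane pair. For *Pir* the ratios were 0.678 and -0.146. The difference between agents was not tested. None of these 4 ratios was past the rule of size, and with the control of the other agent *Nqo1* with sevoflurane and *Pir* with either agent changed sign.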

How the results depend on the processing

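The log2 change of *Osgin1* was called under all 12 settings, between -3.20 and -2.67 with sevoflurane and between -3.56 and -2.96 with desflurane. *Osgin1* was picked for this difference, so these calls repeat the choice and support nothing. With 1 row per library and ratios far past each threshold, changing the threshold or the row choice could not have altered its call. The log2 change of *Nfe2l2* lay between -1.42 and -1.005 and between -1.77 and -1.33, and was past every rule except a ratio above 3. That rule left 1 of the 9 genes called with each agent and 0 between the controls, and a ratio above 1.5 called 4 with sevoflurane, 6 with desflurane and 1 between the anesthetized animals. Shares of all genes were computed only under the main rule. Counts under other settings, here and below, thus have no share to be read against. The call of *Pir* between the controls was lost (0 genes) with a TPM minimum of 5, a ratio above 3, scaling by the median of ratios, or TPM + 1. Pathway genes outside the 9 called with sevoflurane numbered 1 with a minimum of 5, 11 with a ratio above 1.5, 5 after scaling and 6 with the other control, and with desflurane 8 with a ratio above 1.5. With the control of the other agent 4 of 18 ratios of the 9 genes changed sign, those of *Nqo1* and *Srxn1* with sevoflurane and of *Pir* with both agents. The assembled loci and the checks of the pattern search were added after the data were seen. No paired analysis was made. The agents could serve as 2 blocks for time, but that contrast chose the set. Without read counts the counting error is unknown, and single animals limit every comparison.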
